A study of Homo sapiens with 6 samples.

Results

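The Notch pathway was examined by 10 human genes in H9-derived 3PPE (endoderm of the third pharyngeal pouch) with and without an siRNA against HOXA3, a transcription factor of pharyngeal development. The genes are 3 receptors (NOTCH1, NOTCH2 and NOTCH3), 4 ligands (DLL1, DLL3, JAG1 and JAG2) and 3 target genes (HES1, HEY1 and HES4), and they were taken by symbol from the 58735 genes of the count table, through their Ensembl identifiers in GENCODE release 29 (GRCh38). RNA-seq libraries were made from 3 samples given a negative control siRNA (NC, labelled wild type) and 3 given the HOXA3 siRNA (Si-HOXA3, labelled HOXA3 knockdown). All 6 came from H9 (WA09), a line of hESCs. In both groups the cells went to definitive endoderm with Activin A and WNT3A and then received retinoic acid, BMP4, SB431542 (an inhibitor of Activin and TGF-beta receptors) and IWP2 (an inhibitor of Wnt secretion). The siRNAs were delivered with Lipofectamine at day 7, the medium was then changed to opti-MEM, and RNA was taken at day 9. The siRNAs were given transiently, no untransfected culture was analysed here, and the labels do not say whether the replicates were separate differentiations, so the p-values measure only the spread between these 6 samples.

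Notch receptors are single-pass membrane proteins that are activated by ligands on a neighbouring cell. Ligand binding exposes the receptor to ADAM proteases and then to gamma-secretase, which frees the intracellular part of the receptor. That part enters the nucleus, joins the DNA-binding protein RBPJ and turns on genes of the HES and HEY families, which encode repressors of transcription. In the pharyngeal region the pathway is known for its roles in endoderm patterning and in the thymus and parathyroid gland that form from the third pouch.

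No gene of the 10 passed an adjusted p of 0.05 between Si-HOXA3 and NC. HES4 came nearest, with 5.83 ± 0.689 CPM in the NC libraries and 10.9 ± 3.86 CPM in the Si-HOXA3 group (SD, n = 3 each) and groups that did not overlap. The receptors, HES1, HEY1 and HES4 itself varied most in a single library, Si-HOXA3 replicate 2, which differed from the other 5 by the length of the genes. CPM is the number of reads counted on a gene per 1000000 reads of the library, after normalization of the library size, and single values are listed in the order of replicates 1, 2 and 3. Log2 fold changes are Si-HOXA3 over NC, and p-values are from edgeR's two-sided quasi-likelihood test, adjusted by the Benjamini-Hochberg method over the 16561 genes with enough reads to test. By that test 1 gene of the 16561 was called (0.00604%), and 1053 (6.36%) had an unadjusted p under 0.05. Among the 10 genes examined, 9 had enough reads, 0 were called and 1, HES4, had an unadjusted p under 0.05.

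The libraries held 14117150 to 15282307 counted reads, and the upper limit for a gene without a read, taken as 3 counts, came to 0.197 to 0.211 CPM (counting error only). HOXA3 itself had 16.6, 15.9 and 15.5 CPM in the NC group and 10.9, 13.2 and 15.5 CPM in the Si-HOXA3 libraries, with a log2 fold change of -0.27 (SE 0.157, adjusted p = 0.828 by edgeR). HOXA3 overlapped between the groups, with 15.49 CPM in the library labelled Si-HOXA3 replicate 3 and 15.46 CPM in NC replicate 3, and libraries are called here by their labels. Of 12 pouch and endoderm markers, 5 (FOXA2, SOX17, PAX1, PAX8 and FOXN1) had 3 counts or fewer in every library, while EPCAM, an epithelial marker, had 3593 to 5809 counts. Of 10 amnion and trophoblast markers 9 were tested, with a summed level of 5642 to 6148 CPM in the NC libraries and 6169 to 6832 CPM in Si-HOXA3, and 4 of them had higher, non-overlapping values in Si-HOXA3 (6.41% of all genes tested did). None of 8 neural markers had enough reads, and of 7 endothelial markers PECAM1 and ERG had no count. These 7 summed to 114 to 126 CPM in the NC libraries and 80.9 to 122 CPM in Si-HOXA3. KDR made up most of that sum, with a mean of 93.1 CPM in the NC libraries and 81.2 CPM in Si-HOXA3. The summed level was 1261 to 1315 CPM in the NC libraries and 1320 to 1479 CPM in Si-HOXA3 for 6 pluripotency markers, and 2329 to 2494 and 2421 to 2840 CPM for 6 mesenchyme markers. The 7 presomitic mesoderm markers had at most 21 counts each. In such bulk samples fewer cells of a type and less RNA per cell cannot be told apart.

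HES1 and HES4 held the same RBPJ motif in their promoters, and the bases around it are shown because these are the target genes through which the pathway is usually read. RefSeq promoters on GRCh38.p14, each from 250 bases before to 50 bases after the start site, were at hand for 7 of the 10 genes (NOTCH1, NOTCH2, NOTCH3, JAG1, JAG2, HES1 and HES4). The motif GTGGGAA, searched on both strands, was in 2 of these 7, at -85 to -79 in HES1 and at -77 to -71 in HES4, and in 6.281% of all 27305 promoters. In the lines that follow, 5′ to 3′ on the strand of the gene, capitals mark the motif. The HES1 line is chr3:194136052-194136081 (plus strand) and the HES4 line is chr1:1000156-1000185 (minus strand), where 5 of the 7 motif bases lie in an exon of a GENCODE transcript.
HES1: tgaaagttactGTGGGAAagaaagtttggg
HES4: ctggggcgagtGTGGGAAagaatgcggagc
The 2 lines were identical at 16 of 30 positions, and their longest common run, tGTGGGAAagaa, has 12 bases. This run, chosen after the lines were seen, was present in 7 of the 27305 promoters (0.02564%), with HES1 and HES4 themselves among the 7.

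The related motif GTGAGAA was in none of the 7 promoters and in 4.501% of all. CACGNG, a box bound by HES and HEY proteins, was in 5 of the 7 (HES1, JAG1, JAG2, NOTCH2 and NOTCH3) and in 30.41% of all promoters. Another box, CACNAG, was in HES1, NOTCH1, NOTCH2 and NOTCH3 and in 37.98% of all, and CACGAG matches both boxes. TGATNNAT, a motif of PBX and HOX proteins, was in none of the 7 and in 7.599% of all. HES1 held the most box matches of the 7, and its upstream sequence from -250 to -4 (chr3:194135898-194136144, plus strand, outside any GENCODE exon) is given with the RBPJ motif in capitals.
HES1 upstream: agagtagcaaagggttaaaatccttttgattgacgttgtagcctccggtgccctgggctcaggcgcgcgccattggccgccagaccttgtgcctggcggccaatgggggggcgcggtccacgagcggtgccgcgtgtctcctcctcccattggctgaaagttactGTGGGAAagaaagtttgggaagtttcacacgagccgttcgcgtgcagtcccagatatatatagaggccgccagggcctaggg
On the plus strand cacgag begins at -132 and again at -58, and CACGNG lies on the minus strand at -120 to -115 and at -47 to -42. A motif match describes letters only, and no binding was measured in these libraries.

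The 10 genes spanned a wide range of levels. To compare genes, counts were divided by exonic length and scaled to a sum of 1000000 in each library (TPM). HEY1 was the highest, with a mean of 154 TPM over the 6 libraries (141 to 183), above NOTCH3 with 67.9 TPM (39.7 to 78.0) in every library. NOTCH2 (45.2 TPM, 24.3 to 53.5), HES1 (42.7 TPM, 36.0 to 54.0), HES4 (28.6 TPM, 18.3 to 49.0) and NOTCH1 (26.8 TPM, 19.0 to 32.8) followed, and from NOTCH3 to NOTCH1 each gene overlapped its neighbour in this order. This order of means depends on Si-HOXA3 replicate 2, since HES4 lay below NOTCH1 in 5 of the 6 libraries and above it only there (49.0 against 19.0 TPM), and NOTCH2 lay above HES1 in all but that library. The ligands were lower. JAG2 had 6.85 TPM (5.83 to 8.54) and JAG1 6.41 TPM (5.45 to 6.68), which overlapped, and NOTCH1 was 3.90 times JAG2 in mean level. Levels per length depend on the length used. JAG1 had more CPM than JAG2 in every library, over 9298 exonic bases against 6397. The longest coding transcripts of JAG1 and JAG2 have 5940 and 5835 bases. DLL1 had 1.52 TPM (0.577 to 2.27) and DLL3 0.336 TPM (0 to 0.610), which overlapped each other and lay under JAG1.

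**Figure D1:**
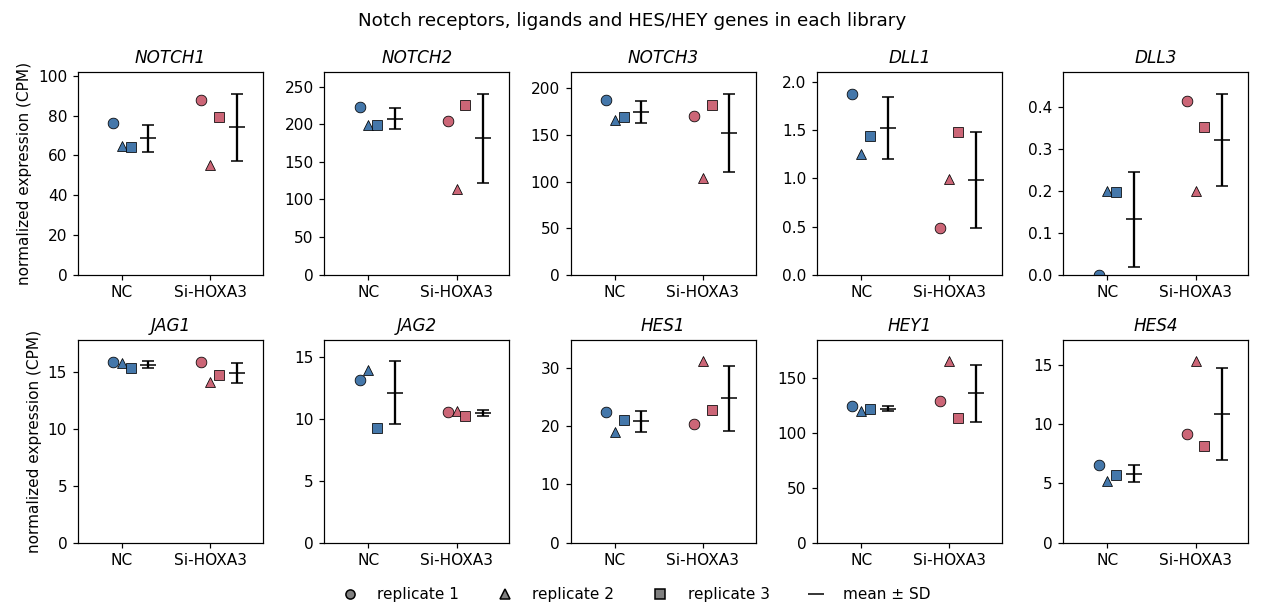
Normalized expression (CPM, y axis from 0, 1 scale per gene) of the 10 Notch pathway genes in the 3 NC (blue) and 3 Si-HOXA3 (red) libraries, with symbols for the replicate and the mean ± SD beside each group. The 3 Si-HOXA3 values of HES4 lie above all NC values, and Si-HOXA3 replicate 2 is the lowest point for NOTCH1, NOTCH2 and NOTCH3 and the highest for HES1, HEY1 and HES4.

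NOTCH1 (ENSG00000148400, chromosome 9 from 136494433 to 136545786, minus strand) encodes the receptor best known from T cell development. Its normalized expression was 76.5, 64.8 and 64.3 CPM in the NC libraries and 87.9, 55.2 and 79.4 CPM in the Si-HOXA3 libraries. Si-HOXA3 replicates 1 and 3 were the highest of the 6 libraries and replicate 2 the lowest, so the groups overlapped. Between the groups this was a log2 fold change of 0.11 (SE 0.158, 95% interval -0.24 to 0.46, adjusted p = 0.916 by edgeR). Without Si-HOXA3 replicate 2 it was 0.28 (SE 0.0917, 95% interval 0.09 to 0.48), with an unadjusted p of 0.00625 and an adjusted p of 0.280, where 1828 of 17144 genes (10.7%) had an unadjusted p under 0.05. Without Si-HOXA3 replicate 1 it was -0.027, so its sign rested on that library, and after a correction of all libraries for exonic length and GC content, added after seeing the data, it was 0.10 (SE 0.107).

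NOTCH2 (ENSG00000134250, chromosome 1 from 119911553 to 120069626, minus strand) encodes the receptor that took the most reads of the 10 genes in 5 of the 6 libraries. The NC libraries had 223, 199 and 199 CPM, and the Si-HOXA3 libraries had 205, 114 and 225 CPM. Only Si-HOXA3 replicate 2 lay below NC, and replicate 3 lay above all NC values. The log2 fold change was -0.19 (SE 0.202, 95% interval -0.64 to 0.25, adjusted p = 0.889 by edgeR), and without Si-HOXA3 replicate 2 it was 0.051 (SE 0.0764, 95% interval -0.11 to 0.21). After the length and GC correction it was -0.15 (95% interval -0.40 to 0.10). Of the 50-base stretches in NOTCH2 transcripts 23.4% also occur in transcripts of other genes, so reads could be split between them. Among these genes are NBPF19, which was not examined, and NOTCH2NLA, a human copy of the first exons of NOTCH2. NOTCH2NLA had 21, 18 and 20 counts in NC and 27, 16 and 22 in Si-HOXA3 (log2 fold change 0.19, SE 0.355, adjusted p = 0.935 by edgeR), against 1714 to 3329 counts of NOTCH2.

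NOTCH3 (ENSG00000074181, chromosome 19 from 15159038 to 15200981, minus strand), a receptor known from vessel walls, was the highest receptor per length. It had 188, 166 and 169 CPM in the NC libraries and 171, 104 and 182 CPM in the Si-HOXA3 libraries. Si-HOXA3 replicate 2 was again the lowest, and the other Si-HOXA3 values lay within the NC range. Its log2 fold change of -0.20 (SE 0.175, 95% interval -0.58 to 0.19, adjusted p = 0.867 by edgeR) became 0.012 (95% interval -0.15 to 0.17) without Si-HOXA3 replicate 2, but -0.23 (SE 0.124, 95% interval -0.50 to 0.04, adjusted p = 0.748) after the length and GC correction. Summed over the 3 receptors, the level was 430.3 to 488 CPM in the NC libraries and 273 to 487 CPM in Si-HOXA3.

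The shift of Si-HOXA3 replicate 2 followed gene length. In that library the median log2 deviation from the mean of the 6 libraries was -0.20 for genes with over 8000 exonic bases and 0.21 for genes under 2500 bases. The difference between long and short genes was -0.40 there and between 0.04 and 0.08 in each of the other 5 libraries. Over all genes tested, Si-HOXA3 replicate 2 was the highest library for 28.9% and the lowest for 29.2%, and it was the lowest for 57.6% of long genes and the highest for 40.5% of short genes. Among the 9 genes tested here it was the highest for 3 and the lowest for 4. NOTCH1, NOTCH2 and NOTCH3 have 10377, 16807 and 9394 exonic bases, while HES1, HEY1 and HES4 have 2062, 3232 and 1118.

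Against the mean of the other 5 libraries, Si-HOXA3 replicate 2 differed by a log2 value of -0.43 for NOTCH1, -0.88 for NOTCH2 and -0.75 for NOTCH3. The same difference was 0.56 for HES1, 0.44 for HEY1 and 1.14 for HES4. It was -0.39 for DLL1, -0.14 for JAG1 and -0.10 for JAG2, so the ligands moved less than NOTCH2 and NOTCH3. Across the 9 genes the Spearman correlation between exonic length and the deviation of this library was -0.88. These 9 points come from 1 library and share its depth and preparation, so the value is a description. NOTCH1, NOTCH2, NOTCH3, HES1, HEY1 and HES4 each lay further from 0 than the median of all genes of similar length in that library. Each gene is therefore given without this library and after the length and GC correction.

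**Figure D2:**
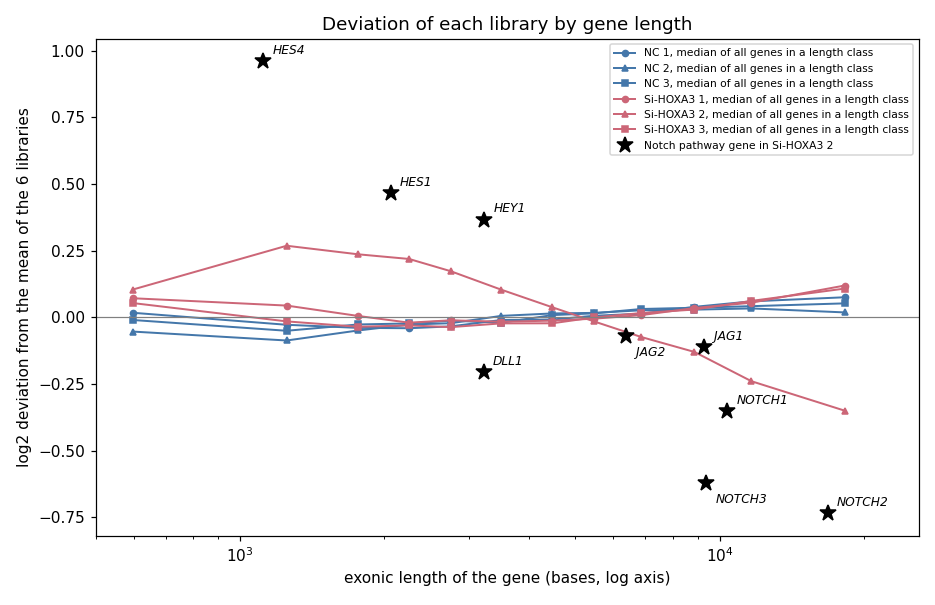
Log2 deviation from the mean of the 6 libraries (y axis) against exonic length in bases (log x axis). Lines join the medians of all tested genes by length class in each library. Stars are the 9 tested Notch pathway genes in Si-HOXA3 replicate 2. The line of that library lies at 0.10 in the shortest class, peaks at about 0.27 in the next and falls to -0.35 in the longest. HES4 lies at 0.96 and NOTCH2 at -0.73.

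The 4 ligands were sparse. JAG1 (ENSG00000101384, chromosome 20 from 10637684 to 10673999, minus strand), a ligand of the Serrate type, had 15.9, 15.8 and 15.4 CPM in the NC libraries and 16.0, 14.2 and 14.8 CPM in the Si-HOXA3 libraries. These values lay within a narrow range and the groups overlapped, since Si-HOXA3 replicate 1 was the highest of all. The log2 fold change of -0.07 had an SE of 0.132, with a 95% interval of -0.36 to 0.22, the narrowest of the ligands (adjusted p = 0.935 by edgeR), and it was -0.03 without Si-HOXA3 replicate 2 and -0.0059 after the length and GC correction. JAG1 overlaps the antisense gene AL050403.2 over 79 exonic bases, and no source says whether strand was used in counting.

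JAG2 (ENSG00000184916, chromosome 14 from 105140981 to 105168824, minus strand), the other Serrate-type ligand, had 13.2, 13.9 and 9.24 CPM in the NC libraries. The Si-HOXA3 libraries had 10.6, 10.6 and 10.2 CPM. NC replicates 1 and 2 were above and NC replicate 3 was below every Si-HOXA3 value. The log2 fold change was -0.21 (SE 0.179, 95% interval -0.60 to 0.19, adjusted p = 0.863 by edgeR), -0.22 without Si-HOXA3 replicate 2 and -0.26 after the length and GC correction. With NC replicate 3 left out it was -0.37, with an unadjusted p of 0.0467 and an adjusted p of 0.997. The gene shares 469 exonic bases (7.33%) with AL512356.1 on the same strand, whose reads cannot be told apart from its own there.

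DLL1 (ENSG00000198719, chromosome 6 from 170282206 to 170306565, minus strand), a Delta-type ligand, had 28, 19 and 22 counts in the NC libraries and 7, 15 and 21 counts in the Si-HOXA3 libraries. The lowest values were those of Si-HOXA3 replicates 1 and 2, and replicate 3 lay within NC. Expression was 1.53 ± 0.321 CPM in the NC libraries and 0.986 ± 0.499 CPM in the Si-HOXA3 group (SD, n = 3 each), and the log2 fold change was -0.63 (SE 0.436, 95% interval -1.59 to 0.33, adjusted p = 0.843 by edgeR). It was -0.30 without Si-HOXA3 replicate 1, -0.64 without replicate 2, -1.03 without replicate 3 and -0.67 after the length and GC correction. At this depth a change of DLL1 of either sign lay within the interval.

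DLL3 (ENSG00000090932, chromosome 19 from 39498895 to 39508481, plus strand), a divergent Delta-type ligand that is known to act inside the cell, was the only gene of the 10 with too few reads for the test. The NC libraries held 0, 3 and 3 of its reads and the Si-HOXA3 libraries 6, 3 and 5. Si-HOXA3 replicate 2 and NC replicates 2 and 3 had the same count. Summed over libraries there were 6 counts in NC and 14 in Si-HOXA3, a depth-scaled ratio of 2.41 with a 95% interval of 0.871 to 7.66 that covers counting error only.

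HES4 (ENSG00000188290, chromosome 1 from 998962 to 1000172, minus strand), a HES repressor that humans have and mice lack, had 98, 79 and 87 counts in the NC libraries and 133, 230 and 116 counts in the Si-HOXA3 libraries. Normalized expression was 6.58, 5.22 and 5.70 CPM in the NC group and 9.14, 15.3 and 8.17 CPM in Si-HOXA3. All 3 Si-HOXA3 values lay above all NC values, and replicate 2 lay far above the other Si-HOXA3 values. Of the 16561 genes tested, 1061 (6.41%) had higher, non-overlapping values in Si-HOXA3, and HES4 was 1 of them among the 9 genes tested here. HES4 had a log2 fold change of 0.90 (SE 0.245, 95% interval 0.36 to 1.44), with an unadjusted p of 0.00363 and an adjusted p of 0.549 by edgeR. The exact permutation test (two-sided) gave p = 0.1, the smallest that 3 libraries against 3 allow.

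The size of the HES4 difference moved with Si-HOXA3 replicate 2 and its direction did not. Without that library the mean in Si-HOXA3 was 8.66 CPM and the log2 fold change was 0.57 (SE 0.201, 95% interval 0.14 to 0.99, unadjusted p = 0.0114, adjusted p = 0.328 by edgeR). The length and GC correction gave 0.53 (SE 0.226, 95% interval 0.04 to 1.02, adjusted p = 0.662). DESeq2 gave 0.90 with an adjusted p of 0.128, where it called 38 of 14634 genes (0.260%). The edgeR test of every gene with at least 1 count gave 0.91 with an adjusted p of 0.0120, the only setting in which HES4 passed 0.05, and 100 of 34513 genes passed there. The SE of HES4 was 0.212 in that setting and 0.245 in the filtered test, and the cause of this difference was not tested. The summed amnion and trophoblast markers and the summed pluripotency markers were also higher in every Si-HOXA3 library than in NC. IGFBP3 made up most of the first sum, with a mean of 3117 CPM in the NC libraries and 3646 CPM in Si-HOXA3, and of the 9 tested amnion and trophoblast markers 7 had a positive log2 fold change and 2, KRT7 and GABRP, a negative one. LIN28A made up most of the pluripotency sum, with a mean of 1049 CPM in the NC libraries and 1149 CPM in Si-HOXA3. All 5 tested pluripotency markers had a positive log2 fold change. POU5F1 and LIN28A did not overlap between the groups, while SOX2, DPPA4 and ZFP42 did, and NANOG had too few reads for the test. The part of either marker set in the HES4 difference was not tested.

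The 3 tested genes whose pattern over the 6 libraries was most like that of HES4 were RPL26P19, COX6B1 and DUSP15, out of 16560 compared. Likeness was the root mean square difference of centred log2 CPM, which was 0.131, 0.138 and 0.140 for them and 0.547 for the median gene. COX6B1, a subunit of cytochrome c oxidase, had 35.7, 28.0 and 27.6 CPM in the NC group and 47.2, 68.5 and 33.8 CPM in Si-HOXA3. Si-HOXA3 replicate 2 was its highest library. Since the gene was picked by its likeness to HES4 over the same libraries, this is not a separate observation.

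HES1 (ENSG00000114315, chromosome 3 from 194136145 to 194138732, plus strand), the best known target of Notch, had 22.5, 19.0 and 21.1 CPM in the NC libraries and 20.4, 31.1 and 22.8 CPM in the Si-HOXA3 libraries. Si-HOXA3 replicate 1 lay within NC, replicate 3 was slightly above it and replicate 2 stood apart. HES1 had a log2 fold change of 0.25 (SE 0.165, 95% interval -0.11 to 0.61, adjusted p = 0.841 by edgeR) and 0.05 (95% interval -0.23 to 0.32) without Si-HOXA3 replicate 2. After the length and GC correction it was 0.17 (95% interval -0.15 to 0.49).

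HEY1 (ENSG00000164683, chromosome 8 from 79764010 to 79767863, minus strand), a repressor related to the HES proteins, had 125, 120.0 and 122 CPM in the NC libraries. The Si-HOXA3 libraries had 129, 165 and 114 CPM. The NC values lay close together, and the Si-HOXA3 values lay on both sides of them. Expression was 122 ± 2.43 CPM in the NC libraries and 136 ± 26.4 CPM in the Si-HOXA3 group (SD, n = 3 each), with a log2 fold change of 0.15 (SE 0.131, 95% interval -0.13 to 0.44, adjusted p = 0.862 by edgeR). Without Si-HOXA3 replicate 2 it was -0.013, with a 95% interval of -0.17 to 0.15, and after the length and GC correction it was 0.12 (95% interval -0.12 to 0.36).

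**Figure D3:**
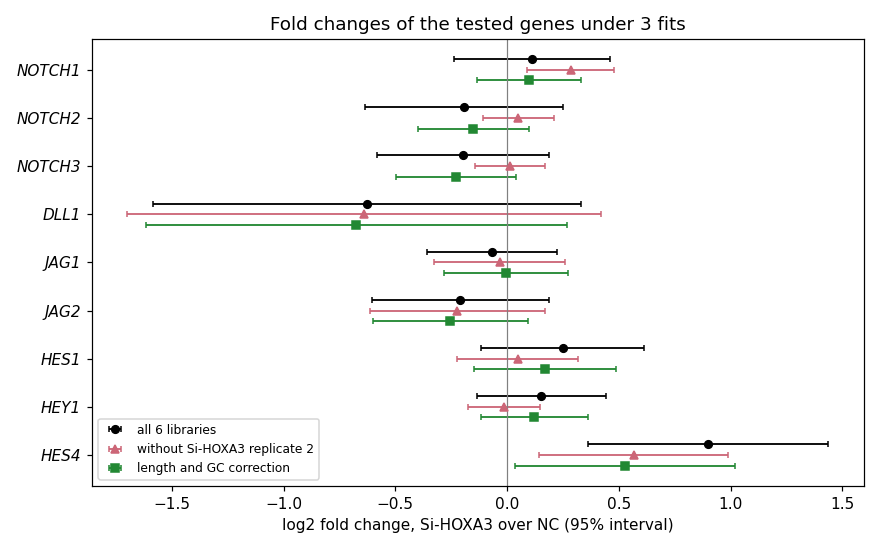
Log2 fold change of Si-HOXA3 over NC with its 95% interval (x axis) for the 9 tested genes, with all 6 libraries (black), without Si-HOXA3 replicate 2 (red) and after the length and GC correction (green). The 3 intervals of HES4 lie above 0, and NOTCH2, NOTCH3, HES1 and HEY1 have narrower intervals and values closer to 0 without Si-HOXA3 replicate 2.

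Over the 9 genes the median log2 fold change was -0.07, with 4 positive and 5 negative values, beside a median of 0.0019 and 50.4% positive values over all genes tested. Without Si-HOXA3 replicate 2 the median of the 9 was 0.012. By role, with all 6 libraries, the median was -0.19 for the receptors, -0.21 for the 3 tested ligands and 0.25 for the target genes. Without Si-HOXA3 replicate 2 the receptors were no longer negative, while the ligands stayed negative (DLL1 -0.64, JAG1 -0.03 and JAG2 -0.22). There NOTCH1, NOTCH2 and NOTCH3 had 0.28, 0.051 and 0.012, and HES1, HEY1 and HES4 had 0.05, -0.013 and 0.57. After the length and GC correction the receptors had 0.10, -0.15 and -0.23, and the target genes 0.17, 0.12 and 0.53. DLL1, JAG1 and JAG2 had -0.67, -0.0059 and -0.26 after that correction. The median SE of the 9 genes was 0.175, beside 0.163 for all genes. DESeq2 called none of them and gave no adjusted p for DLL1. When Si-HOXA3 replicate 2 was left out, edgeR called 24 of 17144 genes (0.140%) and 0 of the 9.

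The make-up of each class within a library does not depend on the library size, but it still carries any length trend of that library. Si-HOXA3 replicate 2 held the highest NOTCH1 and HES4 shares and the lowest HEY1 share. No length and GC correction was applied to the shares, and only those of NOTCH2, JAG1 and HES1 were recomputed with libraries left out. For each library the level per exonic length of each gene was taken as a share of its class, and the groups were compared by the exact permutation test (two-sided, smallest possible p = 0.1), with Benjamini-Hochberg adjustment over the 10 shares. Shares of a class sum to 100% and are not independent of each other.

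NOTCH2 made up 32.9 ± 0.203% of the receptor level in NC and 31.3 ± 1.97% in Si-HOXA3 (SD, n = 3 each), with p = 0.4 and an adjusted p of 0.571 (exact permutation test). NOTCH1 made up 18.1, 17.5 and 17.2% in the NC libraries and 21.8, 22.9 and 18.9% in the Si-HOXA3 libraries, which did not overlap. Its share was larger by 3.63 percentage points in Si-HOXA3, and that of NOTCH3 was 49.5 ± 0.421% in NC and 47.5 ± 0.640% in Si-HOXA3, also without overlap (exact permutation p = 0.1, adjusted p = 0.2 for both).

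Among the ligands JAG1 made up 41.4 ± 3.75% in NC and 43.8 ± 2.49% in Si-HOXA3 (exact permutation p = 0.5, adjusted p = 0.625, n = 3 each), and JAG2 45.8 ± 5.32% and 44.6 ± 2.19%. Both Jagged genes together thus took most of the ligand level in every library. DLL1 made up 11.6 ± 2.31% in NC and 8.28 ± 4.05% in Si-HOXA3. The DLL3 share was 0, 1.74 and 2.07% in the NC libraries and 4.28, 2.13 and 3.56% in the Si-HOXA3 libraries, without overlap (exact permutation p = 0.1, adjusted p = 0.2), and rests on at most 6 counts in a library.

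Among the target genes HES1 made up 19.0 ± 0.849% in NC and 18.8 ± 1.79% in Si-HOXA3 (exact permutation p = 0.9, adjusted p = 0.9, n = 3 each). The HES4 share was 10.6, 9.16 and 9.59% in the NC libraries and 14.1, 17.1 and 13.6% in the Si-HOXA3 libraries, a difference of 5.16 percentage points without overlap. HEY1 made up 71.2 ± 1.55% in NC and 66.2 ± 2.45% in Si-HOXA3, also without overlap (exact permutation p = 0.1 and adjusted p = 0.2 for HES4 and HEY1). The shares of NOTCH1, NOTCH3, DLL3, HES4 and HEY1 were picked out after their values were seen. Over all genes tested, 13.3% did not overlap between the groups in CPM. That is a rate for single genes, and none was computed for shares.

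**Figure D4:**
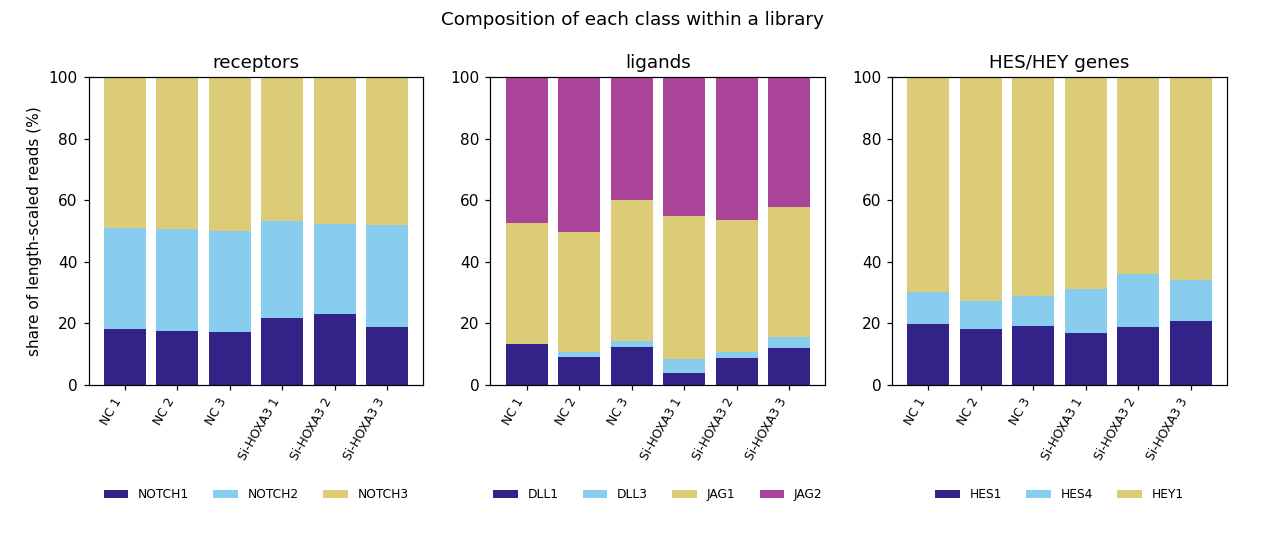
Share of the length-scaled level (percent, y axis, stacked to 100) of each receptor, ligand and HES or HEY gene in each of the 6 libraries (x axis). The NOTCH1 share is 17.2 to 18.1% in NC and 18.9 to 22.9% in Si-HOXA3, and the HES4 share is 9.16 to 10.6% in NC and 13.6 to 17.1% in Si-HOXA3.

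Of 65 other genes of the pathway, listed by role, 55 had enough reads and 0 passed an adjusted p of 0.05 by edgeR, and DESeq2 called none. Their median log2 fold change was -0.03, with 25 positive and 30 negative values. At an unadjusted p under 0.05 there were 2 higher (HES2 and RFNG) and 2 lower (PSEN2 and DTX3L), and 3 genes had higher and 5 had lower non-overlapping values in Si-HOXA3 (6.41% and 6.88% of all genes). Si-HOXA3 replicate 2 was the highest library for 12 and the lowest for 28 of the 55.

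HES2, a HES repressor, had 32, 39 and 26 counts in the NC libraries and 49, 57 and 76 counts in the Si-HOXA3 libraries. The groups did not overlap, and Si-HOXA3 replicate 2 was not the extreme library. Its log2 fold change was 0.96 (SE 0.281, unadjusted p = 0.00585, adjusted p = 0.586 by edgeR), close in size to that of HES4 at a mean of 2.26 TPM against 28.6 TPM. HES6, an antagonist of HES1 and the highest of the other targets per length (67.6 TPM), had a log2 fold change of 0.34 (SE 0.167, adjusted p = 0.788). NRARP, a feedback inhibitor of Notch, had 8.59, 8.53 and 8.19 CPM in the NC group and 6.74, 7.18 and 8.17 CPM in Si-HOXA3, lower in Si-HOXA3 without overlap but by a log2 value of -0.20 (SE 0.168, adjusted p = 0.863). HES3, HES5 and HELT had no count in any library.

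All 9 genes of receptor processing had enough reads. The gamma-secretase subunit APH1A was the highest of the 9 at 155 TPM. PSEN2, a catalytic subunit of the same enzyme, had 12.0, 13.3 and 13.5 CPM in the NC libraries and 10.0, 10.0 and 7.11 CPM in the Si-HOXA3 libraries, without overlap. Its log2 fold change was -0.51 (SE 0.175, unadjusted p = 0.0136, adjusted p = 0.710 by edgeR). Among enzymes that add sugars to the receptor, POFUT1 was the highest (35.9 TPM), and RFNG, a Fringe glycosyltransferase, had a log2 fold change of 0.36 (SE 0.140, adjusted p = 0.729) with Si-HOXA3 replicate 2 the highest library.

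The ubiquitin ligase MIB1, which acts on the ligands, had 68.0 TPM and a log2 fold change of -0.10. RBPJ, the DNA-binding partner of the receptor, had 109, 111 and 119 CPM in the NC group and 121, 102 and 110.3 CPM in Si-HOXA3 (log2 fold change -0.03, SE 0.102, 95% interval -0.25 to 0.20). The coactivator SNW1 (98.0 TPM) and the deacetylase HDAC1 (129 TPM) were the highest of the nuclear activators and repressors. Of the genes of receptor turnover, the ubiquitin ligase ITCH was the highest (54.9 TPM), DTX3L had a log2 fold change of -0.42 (SE 0.164, adjusted p = 0.729) with Si-HOXA3 replicate 2 the lowest library, and DTX1 had at most 3 counts in any library. CNTN1, a contactin that can bind Notch, was the highest of the other receptors and ligands (14.2 TPM). DLL4, the Delta-type ligand of the thymic epithelium and of vessels, had 7, 2 and 9 counts in NC and 2, 1 and 0 in Si-HOXA3, too few for the test. Its summed counts were 18 and 3, a depth-scaled ratio of 0.172 (95% interval 0.0325 to 0.591, counting error only), and it is named here after its values were seen. NC replicate 2 and Si-HOXA3 replicate 1 had the same 2 counts, so the groups overlapped.

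**Figure D5:**
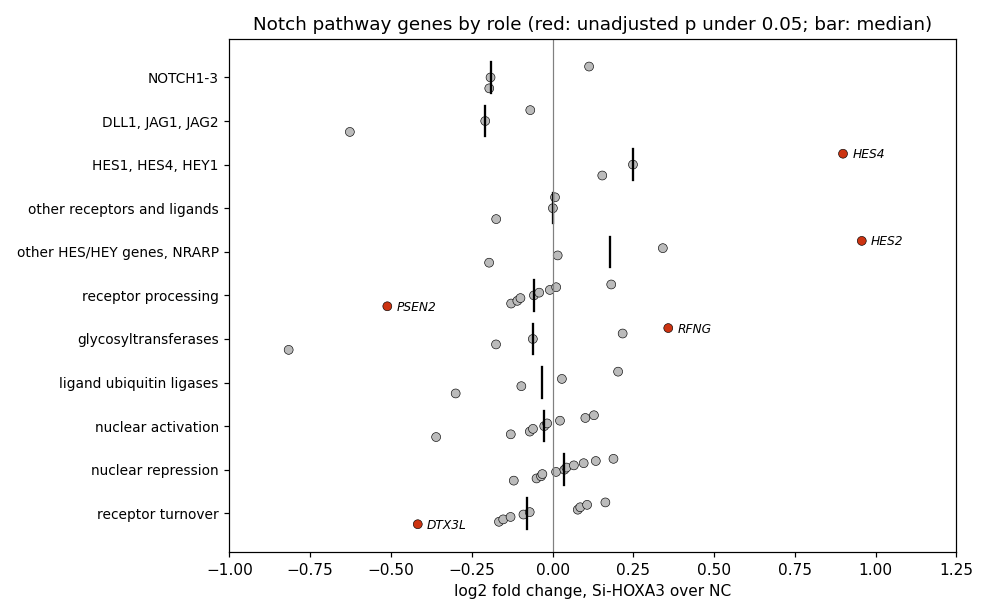
Log2 fold change of Si-HOXA3 over NC (x axis) for each tested gene of the Notch pathway, 1 point per gene, by role (y axis), with a bar at the median of each role and red points for an unadjusted p under 0.05. Most points lie near 0, and HES4, HES2 and RFNG on the right and PSEN2 and DTX3L on the left are red.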

How the data were processed

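The authors deposited 1 table of raw read counts per gene for the 6 libraries, as whole numbers without normalization. Per the labels and the paper's methods, libraries were made from 100 ng of total RNA by LM-Seq (the labels also name a SMARTER kit), single reads were sequenced, and DESeq2 was used for the comparison. The aligner, the counting program and its use of strand are not given in the sources used here. The submitters' processing notes name the mouse builds GRCm38 and mm10, whereas all 58735 identifiers were found in GENCODE release 29 (human, GRCh38), from which symbols, positions and exonic lengths were taken. Groups followed the labels and no column was left out. Replicate pairs all differed by more than sampling noise.

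The test was edgeR 4.0.16 under R 4.3.3 (filterByExpr, TMM, robust quasi-likelihood fit, group only), and all 16561 genes kept were adjusted together. CPM and TPM were computed here from the deposited counts, TPM with the merged exonic length. SE is the log2 fold change over the square root of F. Alternatives were DESeq2 1.42.0, no filter, a minimum of 1 CPM in 3 libraries, and scaling by upper quartile or by library size. Further ones were a replicate block, each library left out, NOTCH2 summed with NOTCH2NLA, and other lengths for the shares. The NBPF genes that share stretches with NOTCH2 were not added to it. limma-voom (limma 3.58.1) with sample quality weights, a length and GC correction (mgcv 1.9.3) and the longest coding transcript were added after seeing the data. The scripts were tested on simulated counts with 200 changed genes.

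The 10 genes, the pathway and marker lists and the motifs were chosen with earlier results of these data known. Besides the 10 genes, HOXA3 and NOTCH2NLA, the named genes were, among the other pathway genes, the 3 largest rises and falls with an unadjusted p under 0.05, the highest per length of each role, those with 3 counts or fewer everywhere, and the 3 nearest in pattern to the gene with the smallest p. HES6, NRARP, RBPJ, DLL4 and marker genes were named besides.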

Additional observations from a re-analysis of the deposited data

How the results depend on the processing

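Of 126 values of the 9 tested genes with an adjusted p under the alternatives, 121 kept their direction and their side of an adjusted p of 0.05. Without Si-HOXA3 replicate 2 the log2 fold change was -0.013 for HEY1, 0.051 for NOTCH2 and 0.012 for NOTCH3, and without Si-HOXA3 replicate 1 it was -0.027 for NOTCH1. With no filter HES4 passed (0.91, adjusted p = 0.0120), so that 1 of the genes examined was called. The log2 fold change of HES4 ranged from 0.53 to 1.07 over all alternatives, and its adjusted p from 0.0120 to 0.997. With each library left out the log2 fold changes ranged from -0.013 to 0.27 for HEY1, -0.027 to 0.28 for NOTCH1, -0.38 to 0.051 for NOTCH2 and -0.34 to 0.012 for NOTCH3. The number of genes called over the whole table was 1, and it was 38 with DESeq2, 47 with limma-voom and sample quality weights and 100 with no filter (34513 genes tested). It was 1 to 24 with each library left out, the 24 without Si-HOXA3 replicate 2. The difference in the HES1 share, -0.144 percentage points, was 0.0923 with the longest coding transcript as length, 0.363 with the median transcript length and 0.450 with no length scaling. It was 0.204 with NC replicate 1 left out and 0.761 without Si-HOXA3 replicate 1, in a range of -1.03 to 0.761 with each library left out. The causes of these changes were not tested. Same-numbered NC and Si-HOXA3 libraries had correlations of 0.142, 0.104 and -0.0590 between their deviations from the group means. Replicates 1 and 2 correlated best with their own number in the other group, and replicates 3 did not. These weak and mixed values cannot decide whether the numbers pair the samples. Under a replicate block 4 genes were called over the whole table, none of them among the genes examined, and HES4 had a log2 fold change of 0.85 (adjusted p = 0.399). DESeq2 gave no adjusted p for DLL1, and that value is not among the 126. At this depth DLL1 and DLL3, with at most 28 and 6 counts in a library, were the least precisely measured.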
